A study of Mus musculus with 10 samples.

Results

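Tpt1, Rack1, Naca, Btf3 and Nap1l1 are mRNAs with a terminal oligopyrimidine (TOP) motif that encode proteins other than ribosomal proteins. They were taken by gene symbol from a table of single direct RNA sequencing reads of mouse P19 cells, keeping reads assigned to an mRNA with a poly(A) tail estimate that passed its quality tag. These 5 genes, of 13272 genes with a kept read, held 23113 of 2042110 kept reads. P19 is a line of undifferentiated embryonal carcinoma cells derived from a mouse teratocarcinoma. The cells were wild type and were transfected with a pool of scrambled siRNAs (siCtl) or with a single siRNA reagent against Larp1 (siLarp1), so every group received siRNA and lipid reagent. RNA was taken at 24 h (3 siCtl and 3 siLarp1 libraries) or at 48 h (2 and 2), the 48 h cells having been transfected a second time 24 h after the first. At 24 h the siCtl and siLarp1 libraries were sequenced in separate pools, so pool and treatment cannot be told apart at that time, whereas the 48 h libraries of both treatments shared one pool.

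TOP mRNAs begin at the cap with a C followed by a stretch of pyrimidines. The motif is best known from the mRNAs of ribosomal proteins and translation factors, whose translation follows mTOR signalling as a group. LARP1 is an RNA-binding protein that contacts the cap and the TOP motif, and it also associates with the poly(A)-binding protein and the poly(A) tail. Tpt1 encodes the translationally controlled tumor protein (TCTP), Rack1 a WD-repeat scaffold that sits on the small ribosomal subunit, Naca and Btf3 the alpha and beta subunits of the nascent polypeptide-associated complex (NAC), which meets new chains at the ribosome exit, and Nap1l1 a histone chaperone.

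First exon sequence is shown because the TOP motif is what groups these genes. For each mRNA it was taken around the most frequent read start of the most-read transcript whose reads begin near its annotated 5′ end. Nanopore reads of RNA stop short of the cap, so each window holds up to 22 bases before the most frequent start and 8 bases from it. Capitals mark runs of at least 5 pyrimidines that begin with C on the transcript strand, searched up to the read start base only, so that the pyrimidines after it in Tpt1 stay in lower case. For Nap1l1 the start shown held 21 of 261 reads of its transcript, and 2 other transcripts of the gene had more reads. In ENSMUST00000219143.1, 171 of 342 reads started at the annotated transcript start, which fell outside this limit. The Nap1l1 window is thus not at the main read start of the gene.
Tpt1: gtcggCCTTTTCCgcccgCTCCCccctccc
Rack1: CTTTTTCTCCacagggtcgtgg
Naca: gctcgctcgttCTCTTTCTgccgccatctt
Btf3: gCCTCCCTCTagctgccatcttgcgtcccc
Nap1l1: gggtCTTTTTTagcgccatctgctcg

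The windows were read from GENCODE M21 transcripts on GRCm38. They lie in first exons at chr14:75845325-75845354 (plus strand) for Tpt1, chr11:48800360-48800381 (plus) for Rack1, chr10:128035634-128035663 (plus) for Naca, chr13:98316957-98316986 (minus) for Btf3 and chr10:111473223-111473248 (plus) for Nap1l1. The longest run began 17 nt upstream of the most frequent read start in Tpt1, 14 nt in Rack1, 11 nt in Naca, 21 nt in Btf3 and 14 nt in Nap1l1. In Rack1 the run opened at base 1 of the annotated transcript. In Tpt1 it began at base 238 of the annotated transcript ENSMUST00000110894.8, and 25.01% of the 4771 reads on that transcript started at base 255. The same search was made in genes with at least 100 kept reads that had a transcript with at least 20 reads whose most frequent start lay 5 to 300 bases into it. These were 2107 of the 2612 genes tested for abundance, and 2088 had a sequence. A run of this kind was present in 706 of the 2088 (33.8%), in 613 of 1994 genes outside the TOP lists (30.7%), in 77 of 78 ribosomal protein TOP genes and in 11 of 11 other non-ribosomal TOP genes. A match of these letters is a description of the window and not a measured binding site.

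The libraries held 112720 to 423398 kept reads, and the siCtl libraries at 24 h were the deepest (289738 to 423398). One read is one RNA molecule, and intervals on shares cover counting error only. Kept reads were counted as alignments, so a read with more than 1 alignment could count more than once. Of the kept reads of the 5 mRNAs, 98.6% (Nap1l1) to 99.7% (Rack1) had a single alignment. The targeted gene followed the labels: Larp1 measured 75.9, 84.2 and 85.0 reads per 1000000 kept reads (RPM) in siCtl and 33.4, 44.9 and 19.1 RPM in siLarp1 at 24 h, and 169 and 123 RPM against 18.5 and 24.9 RPM at 48 h. The siLarp1 values rest on 4, 6 and 3 Larp1 reads at 24 h and on 3 and 3 at 48 h. The log2 fold change of Larp1 was −1.28 ± 0.35 (SE, limma voom adjusted p = 0.491) at 24 h and −2.51 ± 0.44 (adjusted p = 0.00405) at 48 h. Of 8 markers of pluripotent embryonal carcinoma, 7 were read in every library and the list summed to 3256 to 4356 RPM. Of 6 neuronal markers 5 had a read, summing to 199 to 372 RPM, with Neurod1 at 0. Of 6 endoderm and mesoderm markers 3 had a read, summing to 23.2 to 82.7 RPM at 24 h and 151 to 415 RPM at 48 h, with Sox17, Afp and Mesp1 at 0. The lists overlapped between treatments within a time, except the pluripotent list at 48 h, which summed to 3621 and 4099 RPM in siCtl and 4230 and 4356 RPM in siLarp1. Their part in the results was not tested.

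The 5 mRNAs ranked among the more abundant genes. Rack1 was read 10368 times (the 16th gene by kept reads), Tpt1 4978 times (94th), Naca 3391 times (115th), Btf3 2697 times (132nd) and Nap1l1 1679 times (171st). The order Rack1, Tpt1, Naca, Btf3, Nap1l1 held in 10 of 10 libraries. Each read is 1 molecule whatever its length, so these levels need no division by transcript length. Of the 5 genes, 4 came almost wholly from a single annotated transcript, with 95.8% of Tpt1 reads on ENSMUST00000110894.8, 94.2% of Rack1 reads on ENSMUST00000020640.7, 93.6% of Naca reads on ENSMUST00000073868.8 and 92.0% of Btf3 reads on ENSMUST00000152704.7. Nap1l1 was divided between ENSMUST00000218828.1 (60.8%), whose alignments mostly began well inside the transcript, ENSMUST00000219143.1 (20.4%) and ENSMUST00000065917.15 (15.5%), from which the window above was taken. Their median tails were 116, 108 and 122 nt. Mapping quality was 0 for 12.0% of Btf3, 9.88% of Rack1, 9.14% of Naca and 7.83% of Tpt1 reads, which can be shared with near-identical copies, and for 0.655% of Nap1l1 reads.

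The mRNAs differed in tail length before any comparison of treatments. Over all libraries the median tail was 87.8 nt for Tpt1, 99.04 nt for Btf3, 101 nt for Naca, 101 nt for Rack1 and 115 nt for Nap1l1. Tpt1 had the lowest mean tail of the 5 in 10 of 10 libraries, and Nap1l1 had the highest in 9 of 10, Naca taking its place in the other. Tpt1 also had the highest share of tails shorter than 30 nt in 9 of 10 libraries, again with Naca in the other. In siCtl cells at 24 h, tails of 150 nt and above made up 13.7% ± 3.0 (SD, n = 3) of Tpt1 reads and 27.9% ± 1.4 of Nap1l1 reads, while tails of 30 to 60 nt made up 20.7% ± 3.4 and 12.2% ± 0.9. Rack1, Naca and Btf3 lay between them, with 20.7% ± 1.2, 19.3% ± 2.1 and 19.4% ± 1.9 of reads at 150 nt and above.

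**Figure D1:**
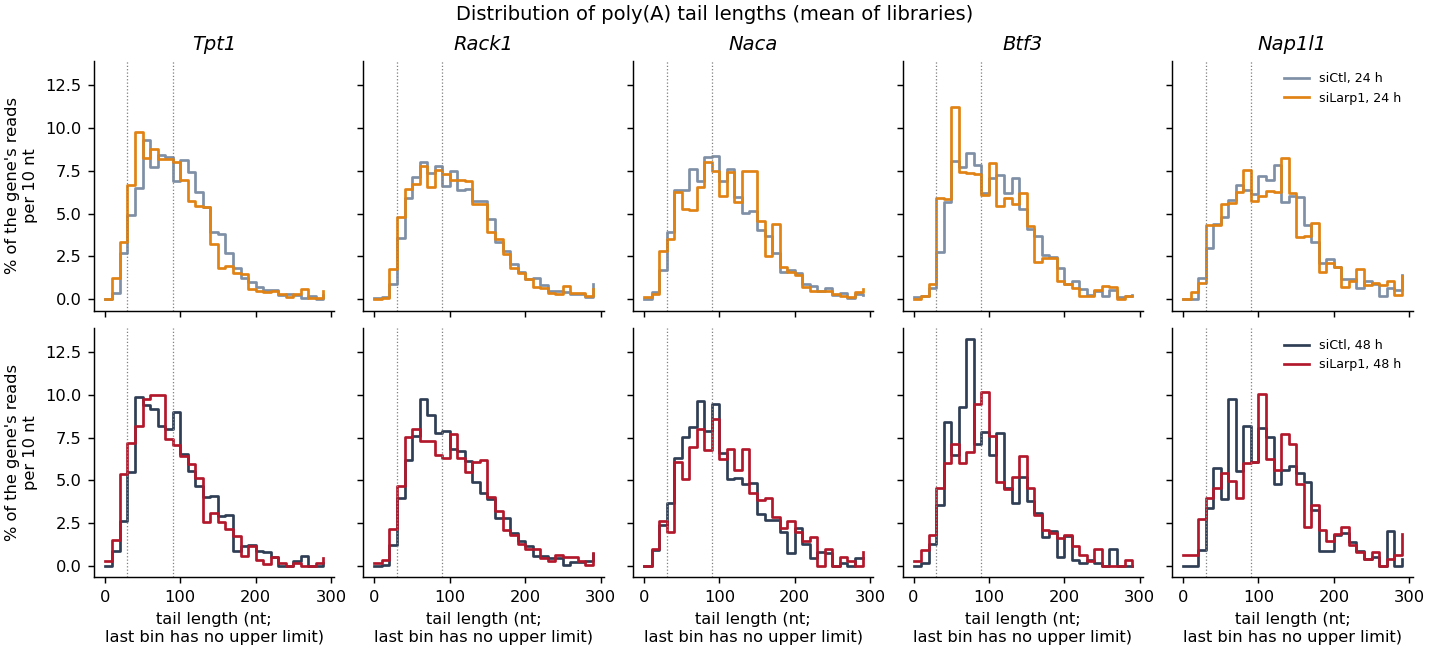
Share of reads (percent, y axis) by poly(A) tail length (nt, x axis) for each of the 5 mRNAs, siCtl and siLarp1 at 24 h and 48 h; lines are the means of the libraries of a group, and dotted lines mark 30 and 90 nt. The curves of Tpt1 (median 87.8 nt) lie at shorter tails than those of Nap1l1 (median 115 nt).

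The share of reads with tails under 30 nt (the <30-nt share) was higher in siLarp1 than in siCtl for Tpt1 and Rack1 at both times, without overlap between the libraries. The means of Tpt1 were 3.06% ± 0.89 (SD, n = 3) in siCtl and 4.62% ± 1.02 (n = 3) in siLarp1 at 24 h, and 3.54% ± 0.43 (n = 2) and 7.12% ± 0.57 (n = 2) at 48 h. Those of Rack1 were 1.10% ± 0.25 and 1.87% ± 0.65 at 24 h, and 1.30% ± 0.01 and 2.67% ± 0.36 at 48 h. None of these differences passed the test across all genes. For Naca, Btf3 and Nap1l1 the groups overlapped at 24 h, and Btf3 and Nap1l1 separated at 48 h on few short-tailed reads (36 and 25 across all libraries). No gene of the 5 was called at either time, against 0.494% of 2429 tested genes called higher at 24 h and 0.36% of 2222 at 48 h.

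In Tpt1, whose protein TCTP is among the most abundant in growing cells, the <30-nt share measured 3.75%, 2.05% and 3.38% in the siCtl libraries at 24 h and 5.78%, 4.17% and 3.91% in the siLarp1 libraries. The 48 h libraries measured 3.85% and 3.24% in siCtl and 7.52% and 6.72% in siLarp1. The lowest siLarp1 library lay just above the highest siCtl library at 24 h, while at 48 h the gap was wider than the spread within either group. The log2 odds ratio was 0.59 (95% interval −0.02 to 1.19, adjusted p = 0.773) at 24 h and 1.10 (0.26 to 1.94, adjusted p = 0.438) at 48 h. For all log2 odds ratios given here, intervals and errors use a spread set by the trend over all genes, not by the gene's own libraries. With the library number as a block the 24 h adjusted p was 1. Without siCtl library 21 the 24 h log2 odds ratio was 0.38.

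In Rack1, which scaffolds signalling proteins on the 40S subunit, the <30-nt share measured 1.26%, 0.812% and 1.23% in siCtl and 1.42%, 1.57% and 2.62% in siLarp1 at 24 h. Its 48 h values were 1.30% and 1.29% in siCtl and 2.93% and 2.41% in siLarp1. Every siLarp1 library lay above every siCtl library of its time, by the smallest margin at 24 h. The log2 odds ratio was 0.84 (0.19 to 1.49, adjusted p = 0.412) at 24 h and 1.08 (0.18 to 1.99, adjusted p = 0.600) at 48 h. Rack1 was the most deeply read of the 5, with 538 to 2030 reads a library, so its shares carry the smallest counting error. The 24 h log2 odds ratio was 0.47 without siLarp1 library 22.

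In Naca, the alpha subunit of NAC, the <30-nt share measured 2.96%, 1.66% and 1.81% in siCtl and 3.17%, 2.74% and 3.85% in siLarp1 at 24 h. At 48 h it measured 2.76% and 3.89% in siCtl and 2.80% and 4.35% in siLarp1. The groups overlapped at both times. Within the same-numbered pairs at 24 h siLarp1 was higher in 3 of 3, as it was for all kept reads. The share of genes for which this held was not counted, so it is not a trait of Naca. The log2 odds ratio was 0.68 ± 0.44 (SE, adjusted p = 0.824) at 24 h and 0.03 ± 0.59 (adjusted p = 0.999) at 48 h.

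In Btf3, the beta subunit of NAC, the share measured 0.833%, 0.820% and 1.16% in siCtl and 0.662%, 0% and 2.48% in siLarp1 at 24 h. The library at 0 had 0 of 177 reads, which allows a share of up to 1.69%. At 48 h Btf3 measured 1.34% and 1.62% in siCtl and 3.87% and 2.16% in siLarp1, without overlap. The log2 odds ratio was 0.23 ± 0.77 (adjusted p = 0.954) at 24 h and 1.07 ± 0.82 (adjusted p = 0.705) at 48 h, and the latter was 0.52 without siLarp1 library 24.

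In Nap1l1, a chaperone of histones H2A and H2B, the share measured 0.775%, 1.63% and 1.32% in siCtl and 2.41%, 0% and 1.56% in siLarp1 at 24 h. The library at 0 had 0 of 113 reads, which allows a share of up to 2.65%. At 48 h it measured 1.06% and 0.847% in siCtl and 1.64% and 6.33% in siLarp1, and the highest value rests on 5 of 79 reads (95% Wilson interval 2.73% to 14.0%). The log2 odds ratio was −0.05 ± 0.90 (adjusted p = 0.994) at 24 h and 1.92 (−0.54 to 4.38, adjusted p = 0.705) at 48 h. The latter was 0.81 without siLarp1 library 25.

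**Figure D2:**
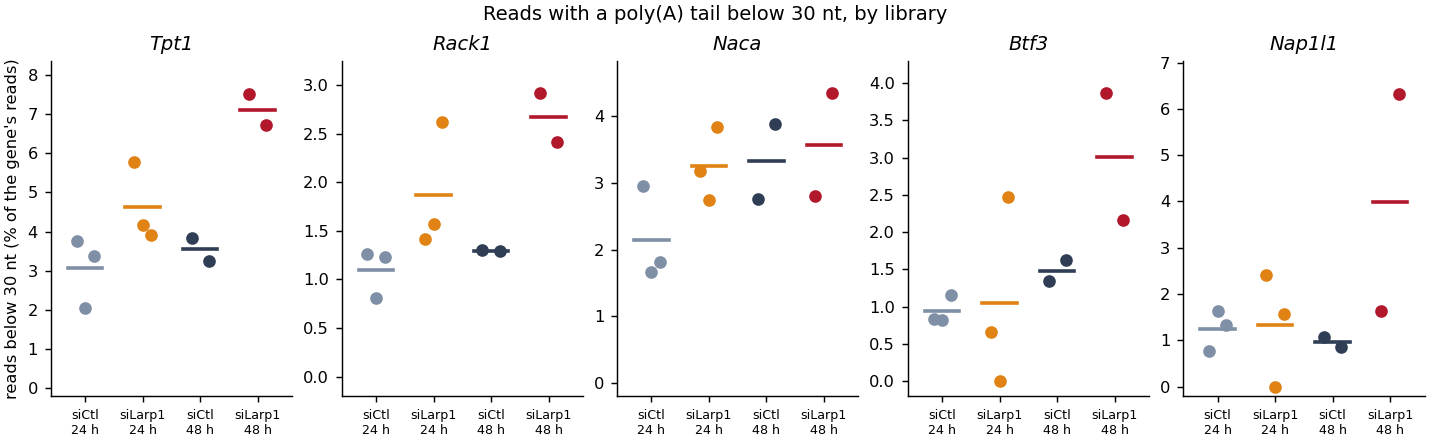
Share of reads with tails under 30 nt (percent, y axis) in each library, for the 5 mRNAs and the 4 groups; points are libraries, horizontal bars the group means, and each panel has its own scale. The siLarp1 points of Tpt1 (3.91% to 5.78% at 24 h, 6.72% and 7.52% at 48 h) and of Rack1 lie above all siCtl points of the same time.

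Counted by overlap, Tpt1 and Rack1 were higher in every siLarp1 library than in every siCtl library at 24 h, where the same held for 28.4% of 278 genes with at least 1000 kept reads. At 48 h it held for Tpt1, Rack1, Btf3 and Nap1l1, against 45.3% of those 278 genes. An exact permutation test over the libraries cannot go below p = 0.1 at 24 h or 0.33 at 48 h. Relabelling within each time point over both times gives 120 arrangements and a smallest two-sided p of 0.0167, which Tpt1 and Rack1 reached (adjusted p = 0.713 over 2610 genes). Any gene without overlap in the same direction at both times reaches this p, so here it restates the overlap. At that smallest p stood 53 genes that were higher and 8 that were lower in siLarp1. The same exact test gave p = 0.217 for Naca, 0.30 for Btf3 and 0.25 for Nap1l1.

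The 48 h pool was sequenced in 2 runs, which give repeat readings of the same libraries. In the first run, Tpt1 measured 4.62% and 2.45% in siCtl and 6.46% and 7.81% in siLarp1, without overlap. In the second run, on 65 to 115 reads a library, it measured 1.54% and 5.22% in siCtl and 10.4% and 3.95% in siLarp1, with overlap. Rack1 measured 0.985% and 1.17% in siCtl and 3.01% and 2.06% in siLarp1 in the first run, and 2.27% and 1.64% against 2.73% and 3.52% in the second. The siLarp1 readings of Rack1 lay above its siCtl readings in both 48 h runs, and the share of all genes that did so was not counted. At 24 h each run held a single treatment, so no comparison within a run was possible. Rack1 readings there ranged from 0% (0 of 112 reads) to 5.15% in siLarp1 and from 0.648% to 1.83% in siCtl.

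Taken by transcript, the pooled reads of a group gave the same order for the main forms of Tpt1 and Rack1. On ENSMUST00000110894.8 of Tpt1, tails under 30 nt were 79 of 2613 reads (3.02%) in siCtl and 44 of 950 (4.63%) in siLarp1 at 24 h, and 21 of 617 (3.4%) and 43 of 591 (7.28%) at 48 h. On ENSMUST00000020640.7 of Rack1 they were 57 of 5256 (1.08%) and 37 of 1960 (1.89%) at 24 h, and 18 of 1344 (1.34%) and 30 of 1203 (2.49%) at 48 h. On ENSMUST00000218828.1 of Nap1l1 they were 9 of 574 and 1 of 191 at 24 h, and 0 of 131 and 5 of 124 at 48 h, so the 2 times differ in direction on few reads. These pooled counts carry no replicate error and no test.

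Among the molecules sequenced, the short tails themselves were close to the 30 nt limit. Their median length lay between 23.0 and 27.9 nt across the 5 genes, over 196 reads of Tpt1, 155 of Rack1, 90 of Naca, 36 of Btf3 and 25 of Nap1l1. In RPM, Tpt1 molecules with tails under 30 nt numbered 78.6 in siCtl and 112 in siLarp1 at 24 h, and 80.7 and 158 at 48 h. Its other molecules numbered 2468 and 2299 at 24 h and 2195 and 2061 at 48 h. For Rack1 the short-tailed molecules numbered 57.0 and 94.2 at 24 h and 64.6 and 126 at 48 h, beside 5180 and 4916, and 4921 and 4600, with longer tails. Short-tailed molecules were a small part of the sequenced molecules of both mRNAs in each group. The RNA was purified on oligo(dT) beads, and how many molecules with very short tails were lost in that step was not measured.

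Summed over the 5 mRNAs, the <30-nt share measured 1.99%, 1.25% and 1.81% in siCtl and 2.66%, 1.97% and 2.97% in siLarp1 at 24 h. At 48 h it measured 2.05% and 2.07% in siCtl and 3.93% and 3.84% in siLarp1. The groups overlapped by a narrow margin at 24 h and were apart at 48 h. Within the 24 h pairs of libraries with the same number, siLarp1 was higher in 3 of 3. The same held for all kept reads, at 2.22% and 2.66% (19), 2.42% and 3.22% (21) and 2.15% and 2.63% (22). The difference of means was 0.853 percentage points at 24 h and 1.83 at 48 h, and it was 1.54 and 2.66 within each of the 2 sequencing runs of the 48 h pool. Rack1 and Tpt1 supply most of these reads. All kept reads moved in the same direction, from 2.15% to 2.42% in siCtl to 2.63% to 3.22% in siLarp1 at 24 h, and from 2.82% and 2.96% to 4.20% and 3.37% at 48 h. The share of alignments that passed the quality tag also differed at 24 h, at 82.1% to 82.8% in siCtl and 84.9% to 85.5% in siLarp1, and lay between 83.9% and 84.8% at 48 h. The part of these library-wide shifts in the values of the 5 genes was not tested.

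The other TOP genes give the setting. Of 79 ribosomal protein TOP genes, 12 were called higher at 24 h and 7 at 48 h, led at 24 h by Rps27a (log2 odds ratio 1.16 ± 0.23, SE, adjusted p = 0.000955) and Rps25 (1.87 ± 0.38) and at 48 h by Rpl23a (1.39 ± 0.29, adjusted p = 0.00121) and Rps25 (2.36 ± 0.56, adjusted p = 0.00157). These encode proteins of the small subunit (Rps) and of the large subunit (Rpl). The 12 other non-ribosomal TOP genes, among them subunits of the initiation factor eIF3, had 0 calls at either time and 0 genes higher at an unadjusted p below 0.05, against 1 of the 5 at 24 h (Rack1), 2 of the 5 at 48 h (Tpt1 and Rack1), and 60 and 42 of the ribosomal protein genes. Over all genes tested, 133 of 2429 at 24 h and 129 of 2222 at 48 h were higher at that unadjusted p, and among genes with at least 1000 kept reads, ribosomal protein genes included, 30.2% and 22.7% were. By size of test the 12 other non-ribosomal TOP genes were led by Eif3f (0.94 ± 0.52) and Eif3h (1.12 ± 0.79) at 24 h. At 48 h the same list was led by Eif3e (−1.91 ± 1.23) and Npm1 (0.38 ± 0.23). With the library number as a block the count over all genes at 24 h was 30 in place of 12, and none of the 5 mRNAs was among them.

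The median log2 odds ratio of the 5 mRNAs was 0.59 at 24 h and 1.08 at 48 h. It was 0.87 and 0.92 for the ribosomal protein TOP genes, 0.32 and 0.24 for the other non-ribosomal TOP genes, 0.39 and 0.59 for genes outside the TOP lists with at least 1000 kept reads, and 0.11 and 0.30 for all genes tested. Summed, the genes outside the TOP lists had a mean <30-nt share of 2.49% in siCtl and 2.72% in siLarp1 at 24 h, and 3.06% and 3.58% at 48 h. The ribosomal protein TOP genes went from 1.78% to 3.09% and from 2.5% to 4.31% on the same measure, and the 5 mRNAs from 1.68% to 2.53% and from 2.06% to 3.89%. The genes outside the TOP lists include Rpl10-ps3, named as a copy of a ribosomal protein gene, and other such copies among them were not counted. These are descriptions of the lists, and whether the 5 mRNAs differ from any of them was not tested.

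**Figure D3:**
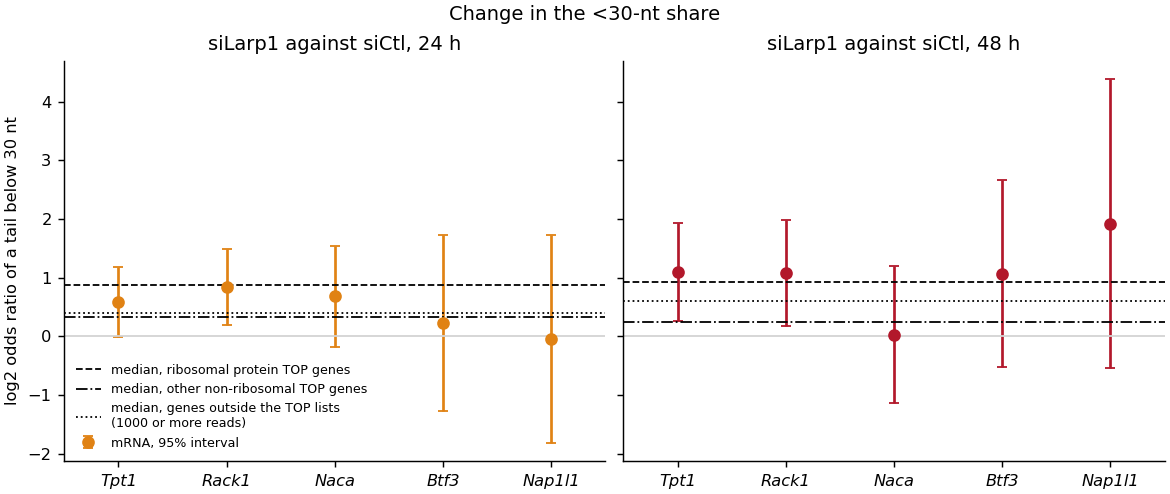
Log2 odds ratio of a tail under 30 nt, siLarp1 against siCtl (y axis), at 24 h and 48 h for the 5 mRNAs with 95% intervals, with horizontal lines at the medians of ribosomal protein TOP genes, other non-ribosomal TOP genes and genes outside the TOP lists. The intervals of Rack1 lie above 0 at both times (0.19 to 1.49 and 0.18 to 1.99) and that of Tpt1 at 48 h (0.26 to 1.94). They use a spread set by the trend over all genes, hardly by each gene's own libraries, and are not adjusted for the number of genes.

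By the root mean square difference in <30-nt share over the 10 libraries, among 145 genes with at least 2000 kept reads, the profiles nearest to the 5 mRNAs summed were those of Rpl10-ps3 (0.486 percentage points), Rps15a (0.545), Rpl41 (0.609), Rpl4 (0.632) and Rps9 (0.678), against a median of 1.46 over the 145. All carry ribosomal protein names. Such genes are common among deeply read genes: 78 of the 278 genes with at least 1000 kept reads were ribosomal protein TOP genes. Their share of the 145 was not counted, so the names alone do not show a particular likeness. Rpl10-ps3 is named as a pseudogene of Rpl10, and reads may be shared between them, so its value is uncertain. Of the relatives of these genes, Btf3l4, Nap1l4 and Set had at least 100 kept reads, and none was called for the <30-nt share. Their log2 odds ratios were 1.72 ± 1.07 (SE), −0.35 ± 2.73 and 1.34 ± 0.78 at 24 h, and −0.05 ± 2.22, −0.23 ± 2.38 and −0.48 ± 1.01 at 48 h. Btf3l4 encodes a close relative of Btf3, and Nap1l4 and Set encode further histone chaperones of the NAP family.

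Tails of 30 to 90 nt, the class around 60 nt, did not move together in the 5 mRNAs. At 48 h the share was lower in both siLarp1 libraries than in both siCtl libraries for Rack1 (means 44.1% and 41.3%), Naca (43.1% and 34.8%), Btf3 (48.3% and 39.8%) and Nap1l1 (36.5% and 28.9%), against 35.3% of 278 genes lower in this way. Tpt1 was higher in both (50.1% and 52.4%), against 10.8% of genes. The library values show how wide these gaps were. Naca measured 45.3% and 41.0% in siCtl and 39.3% and 30.4% in siLarp1 at 48 h, and 43.6%, 37.6% and 37.3% against 31.7%, 37.4% and 35.5% at 24 h. Rack1 measured 43.9% and 44.3% against 41.5% and 41.0% at 48 h, a narrower gap between tighter groups. Btf3 measured 51.7% and 44.9% against 43.6% and 36.0%, and Nap1l1 34.0% and 39.0% against 31.1% and 26.6%. Tpt1 measured 49.6% and 50.6% against 53.8% and 51.1%. At 24 h the means were 45.2% and 49.8% for Tpt1, 39.8% and 39.9% for Rack1, 39.5% and 34.9% for Naca, 40.7% and 45.1% for Btf3 and 31.1% and 33.7% for Nap1l1, all with overlap. The quasi-binomial fit called 0% of 2612 genes at either time, with 56 genes higher and 101 lower at an unadjusted p below 0.05 at 24 h and 39 higher and 133 lower at 48 h. The median log2 odds ratio of all genes was −0.07 at 24 h and −0.19 at 48 h, and the smallest adjusted p of the 5 mRNAs was 0.766 (Naca at 48 h, log2 odds ratio −0.46, interval −0.93 to 0.02).

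Mean tail length at 48 h was lower in siLarp1 for Tpt1 and higher for both NAC subunits by the libraries, and none of these differences passed the test. Tpt1 averaged 94.0 and 92.6 nt in siCtl and 84.4 and 89.3 nt in siLarp1 at 48 h, both siLarp1 values being lower, against 19.4% of 278 genes. At 24 h it averaged 96.1, 105.8 and 93.7 nt in siCtl and 86.9, 93.1 and 97.7 nt in siLarp1, with overlap. The fitted difference was −5.07 ± 2.77 nt (SE, limma adjusted p = 0.867) at 24 h and −6.69 ± 4.15 nt (adjusted p = 0.875) at 48 h. The 24 h difference was −1.66 nt without siCtl library 21, −2.46 nt without siLarp1 library 19, −8.17 nt without siCtl library 22 and −8.04 nt without siLarp1 library 22, and for Tpt1 the 48 h difference was −3.86 nt without siLarp1 library 24.

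Naca averaged 103.5 and 104.5 nt in siCtl and 107.5 and 119.5 nt in siLarp1 at 48 h, with both siLarp1 values higher. Btf3 averaged 99 and 99.8 nt in siCtl and 100.7 and 109.5 nt in siLarp1 at that time, also higher in both, against 20.9% of 278 genes. At 24 h Btf3 stood the other way, with 108.8, 111.3 and 106.8 nt in siCtl and 105.2, 99.7 and 105.4 nt in siLarp1, against 21.2% of genes lower without overlap. By list these were 33 of 78 ribosomal protein TOP genes, 1 of 10 other non-ribosomal TOP genes and 24 of 185 genes outside the TOP lists. The fitted differences were 8.99 ± 4.13 nt (adjusted p = 0.816) for Naca at 48 h, and −5.36 ± 2.88 nt at 24 h and 5.06 ± 4.26 nt at 48 h for Btf3. The 48 h differences rest on single libraries: without siLarp1 library 25 they were 3.43 nt for Naca and 1.25 nt for Btf3, and without siLarp1 library 24 they were 15.5 and 10.0 nt. At 24 h the Btf3 difference was −3.48 nt without siLarp1 library 21.

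Rack1 averaged 110.9 nt in siCtl and 107.9 nt in siLarp1 at 24 h and 104.9 and 105.9 nt at 48 h. Nap1l1 averaged 122.8 nt in both at 24 h, and 116.2 and 119.3 nt at 48 h, where 1 siLarp1 library measured 127.9 nt and the other 110.7 nt. The libraries of siCtl and siLarp1 overlapped for both genes at both times. Over all genes tested the median difference was 1.10 nt at 24 h and 1.90 nt at 48 h, higher in siLarp1. Among the 278 genes with at least 1000 kept reads it was −1.52 nt at 24 h and 0.645 nt at 48 h. By list it was −3.29 and −1.35 nt for ribosomal protein TOP genes and 2.39 and 0.90 nt for other non-ribosomal TOP genes. For genes outside the TOP lists with at least 1000 kept reads it was −0.63 and 1.90 nt, and for the 5 mRNAs −3.03 and 5.06 nt. The limma fit called 0% of 2612 genes for mean tail at either time, with 79 genes higher and 76 lower at an unadjusted p below 0.05 at 24 h and 89 and 63 at 48 h. With the library number as a block it called 3 genes at 24 h.

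**Figure D4:**
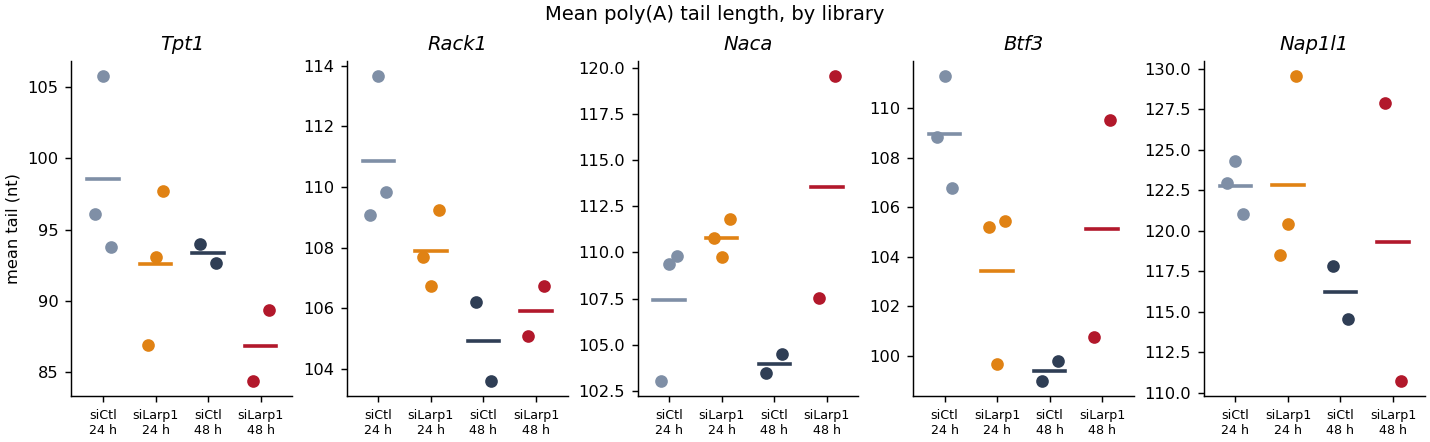
Mean poly(A) tail length (nt, y axis) of the 5 mRNAs in each library, by group; points are libraries, bars the group means, and each panel has its own scale, which does not start at 0. Tpt1 has the lowest mean in every library, and the Btf3 siLarp1 points lie below the siCtl points at 24 h and above them at 48 h.

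Abundance was lower in siLarp1 than in siCtl for all 5 mRNAs at both times by the mean, by amounts that did not pass the test. At 24 h the fitted change was above 0 in 1 of 12 other non-ribosomal TOP genes and 36 of 79 ribosomal protein TOP genes. It was above 0 in 87 of 185 genes outside the TOP lists with at least 1000 kept reads. At 48 h it was above 0 in 3, 13 and 105 of these genes, so lower values were not particular to the 5 mRNAs. In these bulk samples fewer cells holding an mRNA and less of it per cell cannot be told apart. Naca measured 1750, 1923 and 1696 RPM in siCtl and 1577, 1637 and 1490 RPM in siLarp1 at 24 h, and 1606 and 1584 RPM against 1320 and 1526 RPM at 48 h. Its siLarp1 libraries lay below its siCtl libraries at each time. The log2 fold change was −0.19 ± 0.09 (SE, limma voom adjusted p = 0.816) at 24 h and −0.18 ± 0.13 (adjusted p = 0.899) at 48 h. Over both times the exact permutation p was 0.0167, the smallest possible (adjusted p = 0.518 over 2612 genes), which restates the lack of overlap at each time.

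Btf3, the partner of Naca in NAC, measured 1322 and 1382 RPM in siCtl and 1117 and 1153 RPM in siLarp1 at 48 h, a log2 fold change of −0.26 ± 0.14 (adjusted p = 0.817), and its 24 h groups overlapped (means 1361 and 1290 RPM). Tpt1 measured 2307 and 2244 RPM in siCtl and 2215 and 2223 RPM in siLarp1 at 48 h, without overlap but with a log2 fold change of −0.03 ± 0.11. Nap1l1 measured 890, 889 and 893 RPM in siCtl and 692, 845 and 815 RPM in siLarp1 at 24 h (log2 fold change −0.18 ± 0.11), and its 48 h groups overlapped. Summed, the 5 mRNAs made up 11825 RPM in siCtl and 11062 RPM in siLarp1 at 24 h, and 10955 and 10207 RPM at 48 h. Rack1 overlapped at both times, with means of 5237 and 5010 RPM at 24 h and 4986 and 4725 RPM at 48 h.

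Without overlap between groups, lower abundance was thus seen for Naca and Nap1l1 at 24 h, against 8.99% of 278 genes, and for Tpt1, Naca and Btf3 at 48 h, against 26.6%. By list it was seen at 24 h and 48 h for 5 and 49 of 78 ribosomal protein TOP genes. For other non-ribosomal TOP genes it was 2 and 2 of 10, and for genes outside the TOP lists 16 and 20 of 185. The voom fit called 0% of 2612 genes at 24 h, with 75 genes higher and 76 lower at an unadjusted p below 0.05, and 0.0383% at 48 h, which is Larp1 alone. With the library number as a block it called 9 genes at 24 h and 11 at 48 h.

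**Figure D5:**
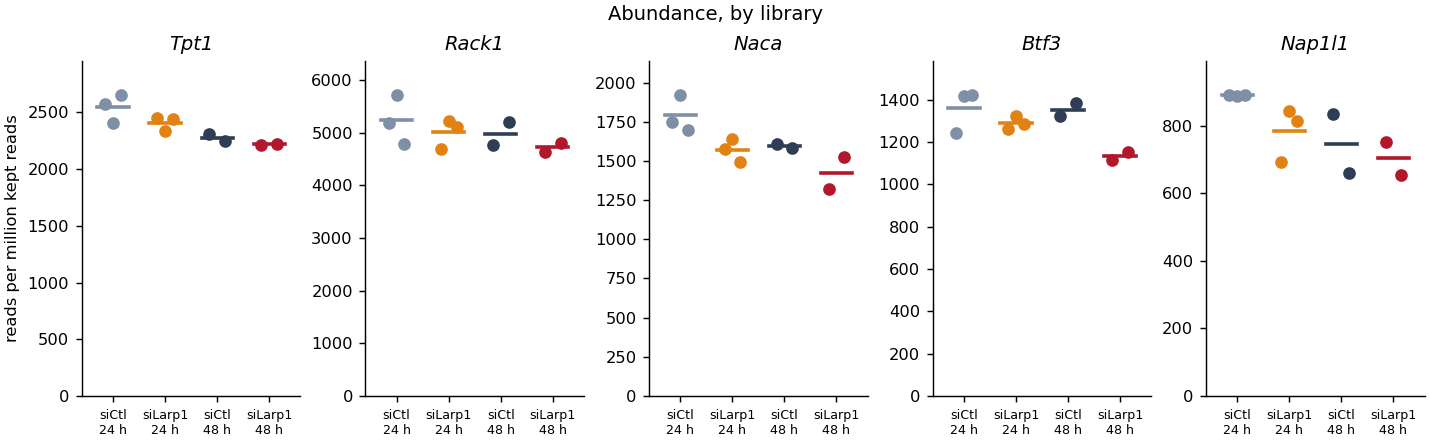
Abundance (RPM, y axis) of the 5 mRNAs in each library, by group; points are libraries, bars the group means, and each panel has its own scale. The order from Rack1 (highest) to Nap1l1 (lowest) is the same in every library, and the Naca siLarp1 points lie below its siCtl points at both times.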

How the data were processed

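Poly(A) RNA of P19 cells was purified on oligo(dT) beads and sequenced directly on nanopores in 10 barcoded libraries. The table deposited by the authors holds 1 row per alignment (2652217 in all), with the poly(A) tail length of the read in nt from Nanopolish, the barcode confidence as a fraction from 0 to 1 and the mapping quality as a score. Base calling was by Guppy, barcode assignment by Deeplexicon and alignment to mouse transcripts by minimap2, for which the submitters' processing notes give version 2.20. Start and end positions on the transcript are in nt. The deposited rows are not filtered on the quality tag, barcode confidence or mapping quality and are not normalized.

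Here alignments to mRNA with the PASS tag were kept, leaving out 77772 mitochondrial and 12203 pseudogene alignments, and tallied per gene and library. Libraries held 112720 to 423398 kept reads. Genes with at least 100 kept reads were tested. Shares of tails below 30 nt and of 30 to 90 nt were compared by a quasi-binomial model per gene with dispersions moderated by limma 3.58.1 (R 4.3.3), mean tail by limma weighted by reads, and abundance by limma voom scaled to kept reads, each over 4 groups with contrasts at 24 h and 48 h and their difference. For the 2 shares the moderated degrees of freedom were 11830 and 15658. A gene's dispersion there came from the trend over all genes, and its own spread between libraries had almost no weight. Adjusted p-values are Benjamini-Hochberg values over all genes tested at a threshold of 0.05. Single values were compared by two-sided exact permutation over libraries. The models were tested on simulated data. The study describes the libraries as biological replicates.

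Genes were named as follows: the 5 mRNAs, Larp1, relatives with at least 100 kept reads, the 5 genes with the nearest <30-nt share among those with at least 2000 kept reads, and at most 2 genes with the smallest p per TOP list and time. The mRNAs and lists were chosen with earlier results of these data known. Sequences came from GENCODE M21, in which 27677 of 28279 transcripts of the table were found by identifier and version.

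Library numbers in the table (19, 21 and 22 at 24 h) were checked for pairing by the correlation of deviations from group means over 149 genes. At 24 h the same numbers correlated at 0.146, 0.393 and 0.320 for the <30-nt share, and they also shared a barcode. Both 24 h treatments used the same set of barcodes, so pairing of the cells and an effect of the barcode cannot be told apart. The same numbers were treated as pairs only in the block alternative and in counts within pairs, and the main tests used no pairing. At 48 h the correlation was −0.165 for the <30-nt share, 0.155 for mean tail and 0.166 for abundance, and pairing there was not established. A fit with the library number as a block was run as an alternative. Other alternatives were other tail limits, quality, barcode and read filters, scales, transcripts and leaving out each library.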

Additional observations from a re-analysis of the deposited data

Results flagged for a closer look

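The mean tail of Btf3 was flagged because its difference between siLarp1 and siCtl took opposite directions at the 2 times. All 3 siLarp1 libraries lay below all 3 siCtl libraries at 24 h (means 103.4 and 109.0 nt), and both siLarp1 libraries lay above both siCtl libraries at 48 h (105.1 and 99.4 nt). The difference of the differences was 11.3 nt. The limma fit of that interaction gave 10.4 ± 5.14 nt (SE, adjusted p = 0.933), so it did not pass the test across all genes, and it ranged from 6.61 to 15.4 nt when each library was left out in turn, the lowest being without siLarp1 library 25 of 48 h. Groups of 2 and 3 libraries were not examined for outlying samples.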

How the results depend on the processing

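The 5 mRNAs were called in no measure, at no time and under none of the 31 alternatives: of 910 alternative values, 875 kept the direction of the reported value and 35 reversed, and the smallest adjusted p was 0.136 (Tpt1, <30-nt share, 48 h). Tpt1 kept its direction in the <30-nt share throughout, and Rack1 reversed once, to −0.91 below 20 nt at 24 h. The cause of these changes was not tested, and few reads limit Btf3 and Nap1l1.

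For single mRNAs the reversed values were as follows. All quality tags gave −0.39 for the Naca <30-nt share at 48 h, −0.036 for that of Btf3, 0.55 for that of Nap1l1, −0.010 for the Rack1 30 to 90 nt share and −1.11 nt for the Nap1l1 mean tail, all at 24 h where not stated. Below 20 nt gave −0.87 for Btf3 and 3.13 for Nap1l1 at 24 h, and below 40 nt gave 0.37 for Nap1l1 at 24 h and −0.43 for Naca at 48 h. Log2 odds gave −0.14 for Btf3 at 24 h. Full-length reads, which are reads that begin near the most frequent start, gave 0.76 for Nap1l1 at 24 h and an abundance change of 0.059. The most-read transcript gave −0.11 for the Naca <30-nt share and −2.11 nt for the Nap1l1 tail at 48 h. A 45 to 75 nt class gave −0.076 for Rack1 and −0.044 for Nap1l1 at 24 h. The log2 tail gave −0.015 for Rack1 at 48 h and −0.0093 for Nap1l1 at 24 h, the median tail −1.03 nt for Nap1l1 at 24 h, and barcode confidence of at least 0.9 an abundance change of 0.027 for Nap1l1 at 48 h.

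Over all genes, the count called for the <30-nt share at 24 h (12) was 30 with the replicate block, 5 at barcode confidence of at least 0.9, 2 below 20 nt, 39 below 40 nt and 5 on log2 odds. At 48 h (8) it was 1 below 20 nt, 1 on log2 odds, 5 with no filter and 21 with the libraries of that time alone. The 30 to 90 nt class had 4 calls at 24 h on log2 odds. Mean tail at 24 h had 10 calls on the log2 scale, 2 by the median, 1 with no filter, 3 with the replicate block and 1 on the most-read transcript, and at 48 h 1 with the libraries of that time and 1 on the most-read transcript. Abundance at 24 h had 2 with all tags, 21 with no filter, 9 with the block and 1 on the most-read transcript. At 48 h (1) it had 0 with full-length reads, 4 with all tags, 2 at 30 reads, 23 with no filter, 0 with the libraries of that time, 11 with the block and 2 on the most-read transcript, and its interaction had 2 with no filter. Only counts that moved beyond a set ratio from the main count are listed here, so smaller changes, with the block or otherwise, are not shown. Crossing the 48 h numbers, an alternative chosen after seeing the data like full-length reads and single runs, gave 21 calls for the <30-nt share and 4 for mean tail at 24 h, and 5 and 7 for abundance at 24 h and 48 h.

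The summed <30-nt difference (0.853 and 1.83 percentage points) was 0.163 below 20 nt and 2.2 below 40 nt at 24 h. At 48 h it was 0.600 and 2.44 at those limits, 1.33 with all tags, 1.73 on the most-read transcripts, 1.63 with full-length reads and 1.54 and 2.66 in single runs. The summed 30 to 90 nt difference at 24 h was −0.220 for 45 to 75 nt.

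Leaving out each library in turn gave ranges of −0.065 to 0.061 for the Rack1 30 to 90 nt share at 24 h, −0.42 to 2.18 nt for its tail at 48 h, −0.13 to 0.021 for its abundance at 24 h, −0.31 to 0.36 for the Naca <30-nt share at 48 h, −1.67 to 0.83 for that of Btf3 and −0.62 to 0.58 for that of Nap1l1 at 24 h. The Nap1l1 tail ranged from −3.05 to 2.62 nt at 24 h and −5.29 to 11.9 nt at 48 h, and its abundance from −0.24 to 0.10 at 48 h. Without a change of direction, the 48 h share of 30 to 90 nt ranged from −0.77 to −0.20 for Naca, −0.69 to −0.22 for Btf3 and −0.68 to −0.31 for Nap1l1, the 24 h share of Tpt1 from 0.11 to 0.38, and abundance from −0.27 to −0.061 for Naca at 48 h and −0.23 to −0.10 for Nap1l1 at 24 h. Counts ranged from 5 (without siLarp1 library 22) to 15 for the <30-nt share at 24 h and from 0 (without siCtl library 25) to 11 at 48 h, where the count was 1 without siLarp1 library 24 and 2 without siCtl library 24. They ranged from 0 to 1 for the 30 to 90 nt share at 24 h, 0 to 2 for mean tail at both times, 0 to 2 and 0 to 3 for abundance, and 0 to 1 for its interaction. The summed 30 to 90 nt difference at 24 h ranged from −0.074 to 1.88.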
